A study of Mus musculus with 10 samples.

Results

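Translation initiation and elongation factors of mouse liver were followed in tumours and in normal liver. The 80 genes were every protein-coding gene of the tissue FPKM table whose symbol begins with Eif1 to Eif6, Eef1 or Eef2, without the eIF2 alpha kinases (symbols that begin with Eif2ak) and without genes on the X and Y chromosomes, out of 56748 genes in all. The table also holds 3 such genes on X or Y, which were left out. The rule used names and positions and no measured value. Of the 80 genes, 58 were expressed highly enough to be tested, with at least 1 FPKM in at least 3 libraries. FPKM are fragments counted per unit of gene length and of a library size set in the processing. Such a level can be compared between genes.

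RNA was sequenced from 3 Akt/Nras/Foxo1AAA liver tumours, 3 Akt/Nras liver tumours and 4 normal livers. The normal livers came from wild-type FVB mice, and the genotype of the tumour samples is likewise given as WT. The tumours are a mouse model of hepatocellular carcinoma in which DNA is injected quickly into the tail vein so that hepatocytes take it up. All tumours therefore carry Akt, a growth-promoting kinase, and Nras, a small GTPase upstream of the MAP kinases. The Akt/Nras/Foxo1AAA tumours, which the sample titles write as FoxoAAA, also carry Foxo1AAA, a form of the transcription factor FOXO1 that AKT cannot phosphorylate. The labels give no age and do not say whether the replicates came from separate mice, and p-values thus reflect only how these libraries vary.

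Protein synthesis starts when the eIF4F complex, made of the cap-binding protein eIF4E, the scaffold eIF4G and the RNA helicase eIF4A, loads an mRNA onto the small ribosomal subunit, which already carries eIF1, eIF1A, eIF3, eIF5 and the initiator tRNA held by eIF2. The 4E-binding proteins block eIF4E until mTORC1, a kinase complex downstream of AKT, phosphorylates them, and the exchange factor eIF2B recharges eIF2 with GTP for the next round. Elongation then runs on eEF1A, which brings aminoacyl-tRNA, and eEF2, which moves the ribosome along. In liver this machinery serves the heavy output of plasma proteins by hepatocytes, and much of its control acts on the proteins, which RNA levels do not show.

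The libraries held 15.4 to 20.7 M reads in Akt/Nras/Foxo1AAA tumours, 16.2 to 21.3 M in Akt/Nras tumours and 13.6 to 17.5 M in normal livers, recovered from FPKM and gene length. A read over 1 kb of gene was worth 0.0854 FPKM in normal liver replicate 1, with 17.5 M reads. In Akt/Nras replicate 1, with 16.2 M reads, it was worth 0.0608 FPKM. The library size behind the deposited FPKM was thus not the read total recovered here. The deposited FPKM did not sum to the same total in each library. The totals were 413812 to 444893 in Akt/Nras/Foxo1AAA tumours, 349619 to 381653 in Akt/Nras tumours, against 692010 to 743203 in normal livers, so the direction of a modest change depends on how the libraries are scaled. Hepatocyte markers (6 of 6 found, among them Alb and Ttr) summed to 28630 to 40500 FPKM in Akt/Nras/Foxo1AAA tumours, 24070 to 26670 in Akt/Nras tumours, against 67340 to 71380 in normal livers. Cholangiocyte markers (5 of 5 found, among them Krt19 and Epcam) summed to 2658 to 5383 FPKM in Akt/Nras/Foxo1AAA tumours, 4099 to 5796 in Akt/Nras tumours, against 16.0 to 24.1 in normal livers. Macrophage markers (5 of 5) summed to 223 to 474 FPKM in Akt/Nras/Foxo1AAA tumours, 346 to 389 in Akt/Nras tumours, against 51.8 to 85.5 in normal livers. Stellate cell and fibroblast markers (5 of 5) summed to 85.7 to 117 FPKM in Akt/Nras/Foxo1AAA tumours, 137 to 143 in Akt/Nras tumours, against 27.7 to 34.2 in normal livers. Endothelial markers (4 of 4) summed to 19.4 to 25.7 FPKM in Akt/Nras/Foxo1AAA tumours, 21.5 to 25.9 in Akt/Nras tumours, against 12.8 to 14.5 in normal livers. T and B cell markers (4 of 4) summed to at most 1.06 FPKM in every library, and no marker of any list was at 0 in all libraries. Mitochondrially encoded genes took 2.44 to 3.48% of the reads in Akt/Nras/Foxo1AAA tumours, 2.18 to 2.55% in Akt/Nras tumours, against 5.59 to 7.93% in normal livers. The marker sums are in deposited FPKM, whose totals were also lower in tumours. Whether the lower hepatocyte sums of tumours hold under other scalings was not checked. In these values the FPKM totals, the marker sums and the mitochondrial share separated tumours from normal liver together with the results below, except the T and B cell markers. The read totals of tumours and normal livers overlapped. The part of markers and mitochondrial reads in those results was not tested. In bulk tissue, fewer cells of a type and less RNA per cell cannot be told apart.

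Summed over the 80 genes, translation factor transcripts made 4144, 4094 and 4284 FPKM in the Akt/Nras/Foxo1AAA tumours, 4977, 4091 and 4562 FPKM in the Akt/Nras tumours and 5580, 5197, 5544 and 5376 FPKM in the normal livers. Taken as a share of each library's FPKM total, the same genes made 0.934, 0.920 and 1.04% in Akt/Nras/Foxo1AAA tumours, 1.37, 1.17 and 1.20% in Akt/Nras tumours and 0.806, 0.699, 0.767 and 0.758% in normal livers. In FPKM every tumour library was below every normal liver, and as a share of the total every tumour library was above every normal liver. The direction of the summed level thus turned with the scaling.

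Single genes were therefore tested in limma on log2(FPKM + 1), with p-values adjusted over all 12439 tested genes, and each call was repeated under 3 other scalings. In these the libraries were brought to equal FPKM totals, to equal totals without the 50 most abundant genes, or to a common median ratio between genes. Equal totals shifted the median log2 change of all tested genes. It was 0.46 in place of -0.09 in Akt/Nras/Foxo1AAA tumours against normal livers, 0.70 in place of -0.07 in Akt/Nras tumours against normal livers, and -0.21 in place of -0.01 between the tumour groups. Equal totals gave the most positive changes against normal liver, so a member that fell under equal totals, or rose in the deposited FPKM, did so relative to the median gene too. Every gene called higher against normal liver in the deposited FPKM stayed so under all 4 scalings. These were 3330 genes in Akt/Nras/Foxo1AAA tumours and 3871 in Akt/Nras tumours. For such an increase, holding under all 4 scalings thus adds nothing to the first call. The comparisons with normal liver share the 4 normal livers, and their values are given side by side.

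In Akt/Nras/Foxo1AAA tumours 7 of the 58 tested members were called higher than in normal livers (12.1%), against 26.8% of all tested genes, and 27 were called lower (46.6%), against 36.5% of all tested genes. In Akt/Nras tumours 12 members were called higher (20.7%), against 31.1% of all tested genes, and 22 lower (37.9%), against 37.9% of all tested genes. In the deposited FPKM members were thus called higher in a smaller share than genes at large, and the share lower in Akt/Nras tumours was that of the background. Under equal totals this turned. There 47 members were called higher (81%) and 2 lower in Akt/Nras/Foxo1AAA tumours, where 60.9% of all tested genes were higher and 13.5% lower, and 49 were called higher (84.5%) and 3 lower in Akt/Nras tumours, where 69.2% of all tested genes were higher and 13.8% lower. Of the members called lower in the deposited FPKM, 16 of 27 in Akt/Nras/Foxo1AAA tumours and 13 of 22 in Akt/Nras tumours were called higher under equal totals. Under all 4 scalings 7 members were higher and 2 lower in Akt/Nras/Foxo1AAA tumours, where all tested genes gave 26.8% and 13.5%, and 12 were higher and 3 lower in Akt/Nras tumours, where all tested genes gave 31.1% and 13.8%. In the deposited FPKM a log2 change of at least 0.5 in either direction was seen in 22.4% of members and 47.1% of all tested genes in Akt/Nras/Foxo1AAA tumours, and in 27.6% of members and 53.3% of all tested genes in Akt/Nras tumours. Under equal totals the shares were 50% of members and 57.9% of all tested genes in Akt/Nras/Foxo1AAA tumours, and 79.3% of members and 71.8% of all tested genes in Akt/Nras tumours, so that in Akt/Nras tumours members no longer had the smaller share. The median log2 change of the members was -0.19 in Akt/Nras/Foxo1AAA tumours and -0.06 in Akt/Nras tumours, where the medians over all tested genes were -0.09 and -0.07.

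**Figure D1:**
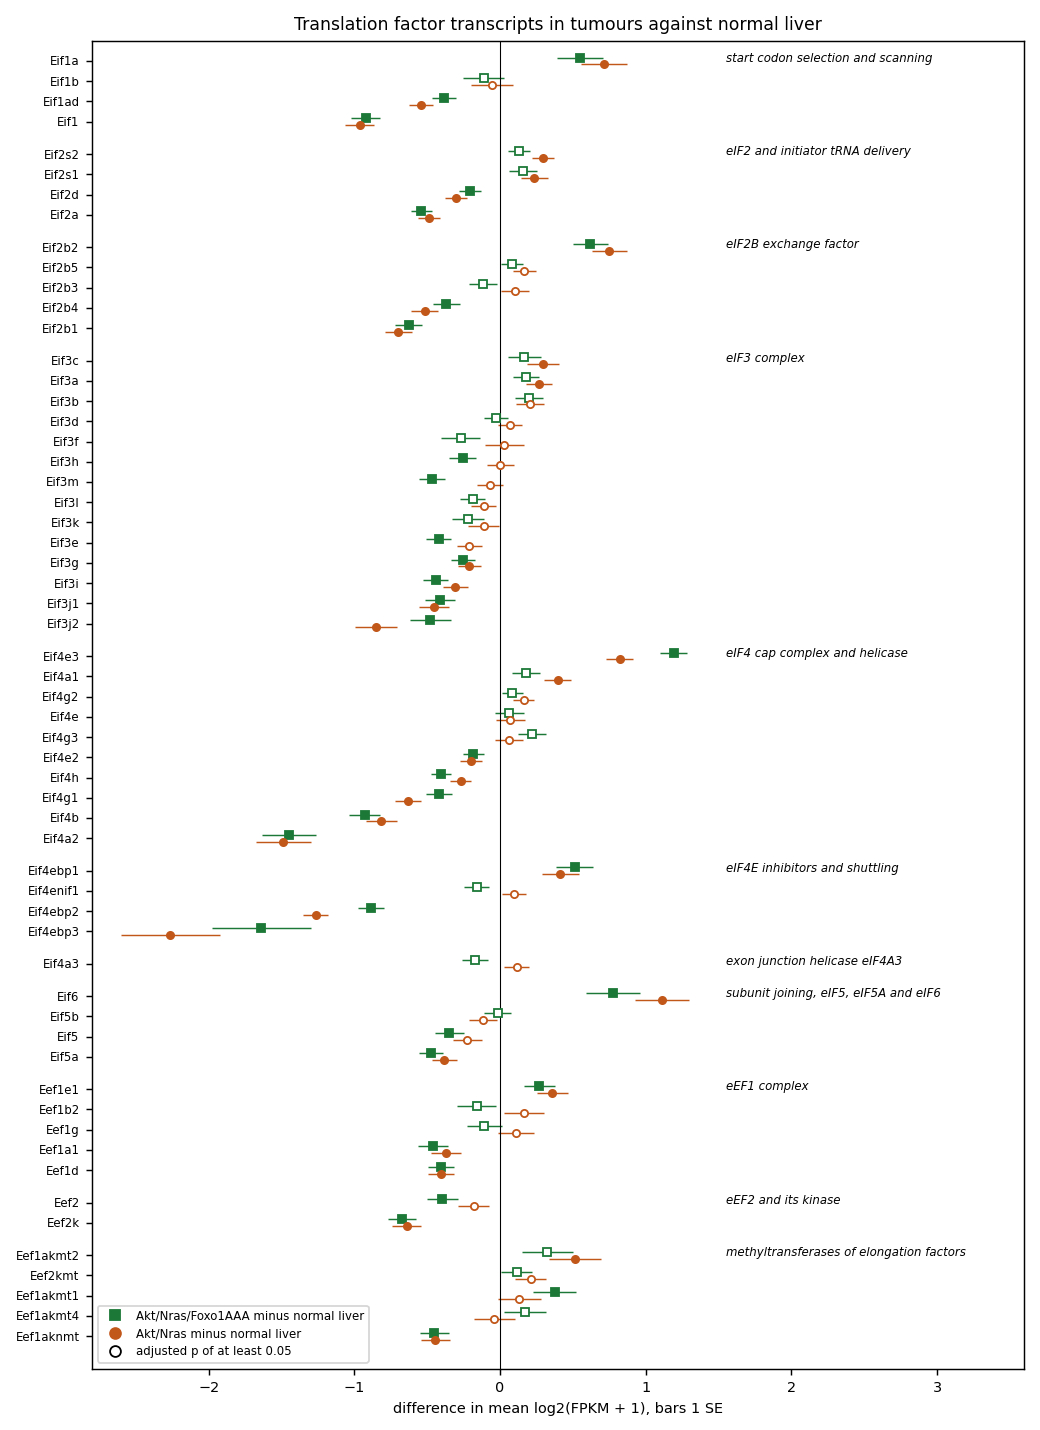
Difference in mean log2(FPKM + 1) of each tested translation factor between tumours and normal livers, deposited FPKM, by role. Squares are Akt/Nras/Foxo1AAA tumours and circles Akt/Nras tumours minus normal livers, bars are 1 SE, and open symbols have an adjusted p of at least 0.05. Most members lie within 0.5 of 0, and the direction of many of these turns with the scaling. Members such as Eif4ebp3, Eif4a2, Eif4ebp2, Eif1, Eif6 and Eif4e3 lie further out.

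**Figure D2:**
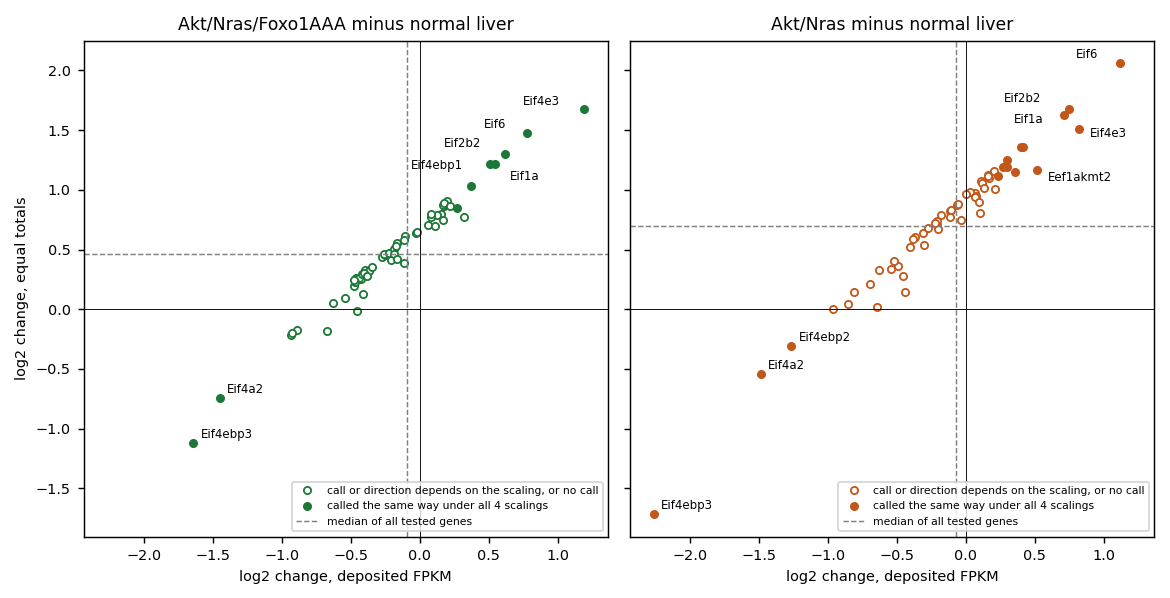
Log2 change of each tested translation factor against normal liver with the deposited FPKM (x axis) and with libraries brought to equal totals (y axis), Akt/Nras/Foxo1AAA tumours on the left and Akt/Nras tumours on the right. Filled points were called the same way under all 4 scalings, and dashed lines mark the median of all tested genes. The cloud shifts upward under equal totals, and Eif4ebp3 and Eif4a2 stay below 0 in both panels.

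Among the 4E-binding proteins, which hold eIF4E away from eIF4G, Eif4ebp1 rose while Eif4ebp2 and Eif4ebp3 fell. Eif4ebp3 (ENSMUSG00000090264, chromosome 18) had 2.15, 1.43 and 0.282 FPKM in Akt/Nras/Foxo1AAA tumours, 0.327, 0.151 and 0.757 FPKM in Akt/Nras tumours and 4.25, 4.05, 10.3 and 5.64 FPKM in normal livers. Every tumour library was below every normal liver. The means were 4.70-fold lower in Akt/Nras/Foxo1AAA tumours (log2 change -1.64, SE 0.34, adjusted p = 0.0016) and 14.7-fold lower in Akt/Nras tumours (log2 change -2.26, SE 0.34, adjusted p = 0.000144), and both calls held under all 4 scalings. The folds rest on single libraries, at 7.07-fold lower without Akt/Nras/Foxo1AAA replicate 1 and 25.3-fold lower without Akt/Nras replicate 3. These are low levels, resting on 29, 19 and 3 reads in Akt/Nras/Foxo1AAA tumours, 4, 2 and 12 reads in Akt/Nras tumours and 27 to 73 reads in normal livers, and Maskbp3, a same-strand gene that overlaps it, reached at most 1.36 FPKM.

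Eif4ebp2 (ENSMUSG00000020091, chromosome 10) was the most abundant 4E-binding protein in normal liver. It had 54.2, 45.7 and 45.6 FPKM in Akt/Nras/Foxo1AAA tumours, 37.7, 39.9 and 33.4 FPKM in Akt/Nras tumours and 89.5, 90.8, 90.7 and 89.7 FPKM in normal livers. The 4 normal livers lay close together, and the 3 groups did not overlap. Eif4ebp2 fell 2.44-fold in Akt/Nras tumours (log2 change -1.27, SE 0.09, adjusted p = 4.69e-07), a call that held under all 4 scalings. In Akt/Nras/Foxo1AAA tumours it fell 1.86-fold (log2 change -0.89, SE 0.09, adjusted p = 9.89e-06), and under equal totals the log2 change was -0.17 with an adjusted p of 0.137.

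Eif4ebp1 (ENSMUSG00000031490, chromosome 8), the best known mTORC1 substrate of the family, had 51.5, 50.7 and 51.8 FPKM in Akt/Nras/Foxo1AAA tumours, 59.6, 39.4 and 46.5 FPKM in Akt/Nras tumours and 40.4, 33.3, 35.2 and 34.1 FPKM in normal livers. The Akt/Nras/Foxo1AAA tumours were all above the normal livers, and the lowest Akt/Nras tumour lay within their range. The rise was 1.43-fold in Akt/Nras/Foxo1AAA tumours (log2 change 0.51, SE 0.13, adjusted p = 0.00471) and 1.36-fold in Akt/Nras tumours (log2 change 0.41, SE 0.13, adjusted p = 0.0136), and both calls held under all 4 scalings. The make-up of the family, which no scaling of a library can change, shifted toward Eif4ebp1. Eif4ebp1 made 47.8 to 53.0% of the summed FPKM of the 3 genes in Akt/Nras/Foxo1AAA tumours, 49.6 to 61.1% in Akt/Nras tumours, against 25.9 to 30.1% in normal livers. Eif4ebp2 made 46.7 to 50.2% in Akt/Nras/Foxo1AAA tumours, 38.6 to 50.2% in Akt/Nras tumours, against 66.6 to 70.8% in normal livers. It kept the larger share in Akt/Nras/Foxo1AAA replicate 1 and Akt/Nras replicate 2. The sum itself was 97.7 to 108 FPKM in Akt/Nras/Foxo1AAA tumours, 79.5 to 97.6 FPKM in Akt/Nras tumours, against 128 to 136 FPKM in normal livers. As a share of each library's FPKM total the sum was on the other side, at 0.022 to 0.0243% in Akt/Nras/Foxo1AAA tumours, 0.0211 to 0.0268% in Akt/Nras tumours, against 0.0172 to 0.0194% in normal livers. Eif4enif1, which carries eIF4E into the nucleus, had log2 changes of -0.16 in Akt/Nras/Foxo1AAA tumours and 0.09 in Akt/Nras tumours and was called in neither, whereas under equal totals it was called higher in both (0.42 in Akt/Nras/Foxo1AAA tumours and 0.90 in Akt/Nras tumours).

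Of the cap-binding proteins themselves, Eif4e was not called while its paralog Eif4e3 rose. Eif4e had 8.73, 9.69 and 10.4 FPKM in Akt/Nras/Foxo1AAA tumours, 8.49, 9.71 and 10.8 FPKM in Akt/Nras tumours and 9.11, 8.13, 9.81 and 9.54 FPKM in normal livers. The 3 groups overlapped, with log2 changes of 0.06 (SE 0.10, adjusted p = 0.595) in Akt/Nras/Foxo1AAA tumours and 0.07 (SE 0.10, adjusted p = 0.547) in Akt/Nras tumours. Under equal totals these changes were 0.71 in Akt/Nras/Foxo1AAA tumours and 0.95 in Akt/Nras tumours and both were called. Eif4e3 (ENSMUSG00000093661, chromosome 6), which codes for an atypical cap-binding protein, had 5.61, 5.65 and 4.76 FPKM in Akt/Nras/Foxo1AAA tumours, 4.18, 3.42 and 4.10 FPKM in Akt/Nras tumours and 1.70, 1.86, 1.58 and 1.94 FPKM in normal livers. The 3 groups did not overlap. Eif4e3 rose 3.02-fold in Akt/Nras/Foxo1AAA tumours (log2 change 1.19, SE 0.09, adjusted p = 1.77e-06) and 2.21-fold in Akt/Nras tumours (log2 change 0.82, SE 0.09, adjusted p = 1.68e-05), under all 4 scalings. Eif4e2, whose product binds the cap and represses translation, was lower in both tumour groups in the deposited FPKM (log2 change -0.18 and adjusted p = 0.0477 in Akt/Nras/Foxo1AAA tumours, -0.20 and 0.0305 in Akt/Nras tumours). Both calls were lost without 1 of several libraries. The adjusted p was up to 0.174 (without Akt/Nras/Foxo1AAA replicate 2) for Akt/Nras/Foxo1AAA tumours and 0.0875 (without Akt/Nras replicate 2) for Akt/Nras tumours. Under equal totals Eif4e2 was called higher in both (log2 change 0.47 in Akt/Nras/Foxo1AAA tumours and 0.68 in Akt/Nras tumours).

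The helicase paralogs Eif4a1 and Eif4a2, both DEAD-box ATPases that unwind the mRNA leader, moved apart. Eif4a2 (ENSMUSG00000022884, chromosome 16) had 19.3, 22.3 and 17.3 FPKM in Akt/Nras/Foxo1AAA tumours, 12.6, 23.2 and 23.3 FPKM in Akt/Nras tumours and 56.5, 59.0, 51.5 and 53.3 FPKM in normal livers. Every normal liver was at more than 50 FPKM and no tumour was above 23.3. Eif4a2 fell 2.81-fold in Akt/Nras/Foxo1AAA tumours (log2 change -1.45, SE 0.19, adjusted p = 6.25e-05) and 2.80-fold in Akt/Nras tumours (log2 change -1.49, SE 0.19, adjusted p = 3.89e-05), and both calls held under all 4 scalings. Rfc4, which overlaps Eif4a2 on the opposite strand, reached at most 5.23 FPKM, and the sources used here do not say whether reads were counted by strand. Eif4a1 had 92.3, 103 and 113 FPKM in Akt/Nras/Foxo1AAA tumours, 119, 115 and 123 FPKM in Akt/Nras tumours and 100, 81.9, 91.0 and 89.6 FPKM in normal livers. The Akt/Nras tumours lay above all normal livers and the Akt/Nras/Foxo1AAA tumours overlapped them. Eif4a1 rose 1.32-fold in Akt/Nras tumours (log2 change 0.40, SE 0.09, adjusted p = 0.00324) under all 4 scalings, whereas in Akt/Nras/Foxo1AAA tumours the log2 change was 0.18 (SE 0.09, adjusted p = 0.123). Eif4a2 made 13.3 to 17.8% of the summed FPKM of both paralogs in Akt/Nras/Foxo1AAA tumours, 9.53 to 16.7% in Akt/Nras tumours, against 36.1 to 41.9% in normal livers.

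The sequences just before the start of these helicase genes are shown because the levels of the paralogs moved apart. Both are the 120 bases that end at the base before the RefSeq start, read 5′ to 3′ on the gene's strand in build GRCm38.p6, at chr11:69672424-69672543 on the minus strand for Eif4a1 and chr16:23107348-23107467 on the plus strand for Eif4a2.
Eif4a1: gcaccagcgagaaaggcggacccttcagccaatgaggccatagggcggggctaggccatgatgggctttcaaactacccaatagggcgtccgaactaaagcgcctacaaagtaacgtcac
Eif4a2: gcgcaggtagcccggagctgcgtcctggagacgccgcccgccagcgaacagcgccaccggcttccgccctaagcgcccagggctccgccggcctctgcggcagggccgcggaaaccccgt

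Partners of the helicase were lower in the deposited FPKM. Eif4b, which stimulates eIF4A, had 41.6, 41.0 and 44.3 FPKM in Akt/Nras/Foxo1AAA tumours, 46.1, 43.2 and 48.5 FPKM in Akt/Nras tumours and 88.4, 81.5, 67.1 and 91.0 FPKM in normal livers, without overlap. It was 1.94-fold lower in Akt/Nras/Foxo1AAA tumours (log2 change -0.93, SE 0.11, adjusted p = 2.66e-05) and 1.79-fold lower in Akt/Nras tumours (log2 change -0.82, SE 0.11, adjusted p = 5.17e-05). Under equal totals the log2 changes of Eif4b were -0.22 in Akt/Nras/Foxo1AAA tumours and 0.14 in Akt/Nras tumours and neither was called. The scaffold Eif4g1 had 74.1, 63.7 and 72.3 FPKM in Akt/Nras/Foxo1AAA tumours, 58.7, 67.0 and 55.1 FPKM in Akt/Nras tumours and 93.4, 97.1, 88.4 and 96.4 FPKM in normal livers. Its log2 change was -0.42 (SE 0.09, adjusted p = 0.00217) in Akt/Nras/Foxo1AAA tumours and -0.63 (SE 0.09, adjusted p = 0.000103) in Akt/Nras tumours with no overlap, and under equal totals 0.30 and 0.33 in the same groups, both called. Eif4h, another stimulator of eIF4A, was called lower in both tumour groups in the deposited FPKM (log2 changes -0.41 in Akt/Nras/Foxo1AAA tumours and -0.27 in Akt/Nras tumours), and higher in both under equal totals (0.30 in Akt/Nras/Foxo1AAA tumours and 0.68 in Akt/Nras tumours). The other scaffolds, Eif4g2 and Eif4g3, were called in neither tumour group in the deposited FPKM and higher in both under equal totals. In the deposited FPKM they had log2 changes of 0.08 for Eif4g2 and 0.22 for Eif4g3 in Akt/Nras/Foxo1AAA tumours and of 0.16 and 0.06 for the same genes in Akt/Nras tumours. Of the 10 tested genes of the cap complex and helicase group, 1 was higher and 5 lower in Akt/Nras/Foxo1AAA tumours and 2 were higher and 5 lower in Akt/Nras tumours, where all tested genes gave 26.8% higher and 36.5% lower in Akt/Nras/Foxo1AAA tumours and 31.1% higher and 37.9% lower in Akt/Nras tumours. Under equal totals 8 of the 10 were higher in each, where 60.9% of all tested genes were higher in Akt/Nras/Foxo1AAA tumours and 69.2% in Akt/Nras tumours.

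**Figure D3:**
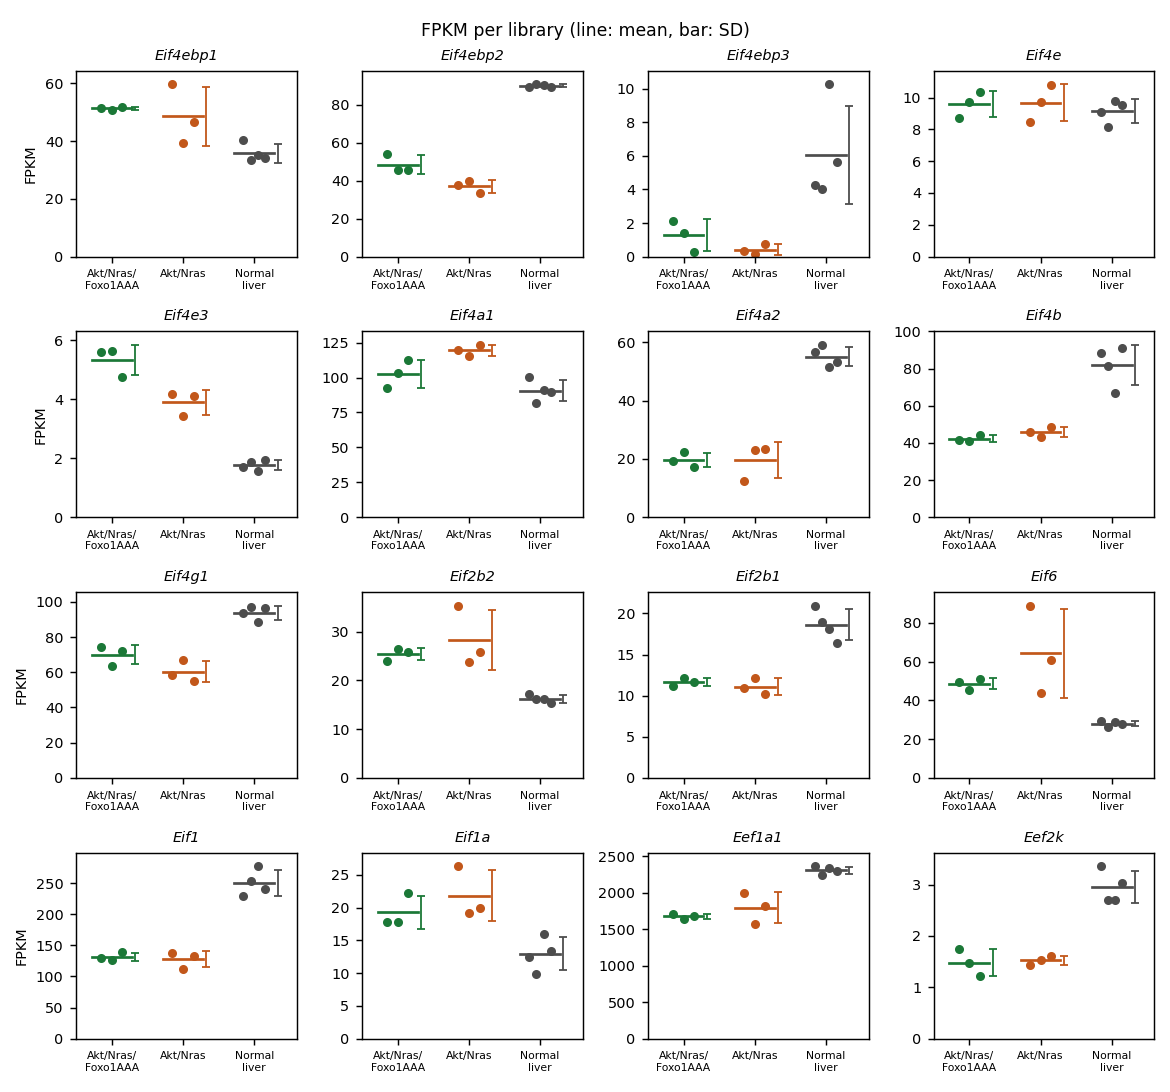
FPKM of 16 translation factors in every library. Points are libraries, lines are group means and bars are SD, with Akt/Nras/Foxo1AAA tumours (n = 3), Akt/Nras tumours (n = 3) and normal livers (n = 4) from left to right and each axis starting at 0. Eif4ebp2, Eif4a2 and Eif4e3 separate tumours from normal livers without overlap, whereas the 3 groups overlap for Eif4e.

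The ratio of the FPKM of 2 paralogs within a library is the same however the library is scaled. The ratios tested add 0.1 to each FPKM, which matters only where a paralog is near 0. In 9 of 10 tested ratios the libraries of each tumour group did not overlap those of the normal livers, and the exception was Eif4e2 to Eif4e in both comparisons. Of single tested genes, 65.4% did not overlap in Akt/Nras/Foxo1AAA tumours and 68.3% in Akt/Nras tumours. The share for ratios of other gene pairs was not measured, so the count cannot be set against a background. Several pairs share a gene and are not independent. Without the added 0.1, a comparison made after the values were seen, 9 ratios did not overlap in Akt/Nras/Foxo1AAA tumours and 8 in Akt/Nras tumours. The difference was Eef1a2 to Eef1a1, where 2 Akt/Nras tumours and every normal liver had 0 reads of Eef1a2 and were tied. The exact two-sided permutation test cannot go below p = 0.0571 with 3 against 4 libraries, and the 18 comparisons without overlap sat at that limit. Their adjusted p over the 30 tests was 0.0952. An adjusted p is never below its p, so no ratio could pass the threshold. The FPKM ratio of Eif4a2 to Eif4a1 was 0.153 to 0.216 in Akt/Nras/Foxo1AAA tumours, 0.105 to 0.201 in Akt/Nras tumours, against 0.565 to 0.721 in normal livers. Eif4ebp2 to Eif4ebp1 stood at 0.881 to 1.05 in Akt/Nras/Foxo1AAA tumours, 0.632 to 1.01 in Akt/Nras tumours, against 2.21 to 2.72 in normal livers. Eif4e3 to Eif4e stood at 0.458 to 0.642 in Akt/Nras/Foxo1AAA tumours, 0.352 to 0.493 in Akt/Nras tumours, against 0.161 to 0.229 in normal livers. These 3 ratios separated all tumours from all normal livers, and none of the 3 separated the tumour groups from each other. Eif4g2 to Eif4g1, a translation factor of cap-independent initiation set against the main scaffold, was 0.811 to 0.918 in Akt/Nras/Foxo1AAA tumours, 0.949 to 1.22 in Akt/Nras tumours, against 0.576 to 0.684 in normal livers. It was 1 of the 2 ratios whose tumour groups did not overlap, at an exact permutation p of 0.1, the smallest that 3 against 3 allows, and an adjusted p of 0.15. The other was Eef1a2 to Eef1a1, which rests on the few reads of Eef1a2 given below.

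**Figure D4:**
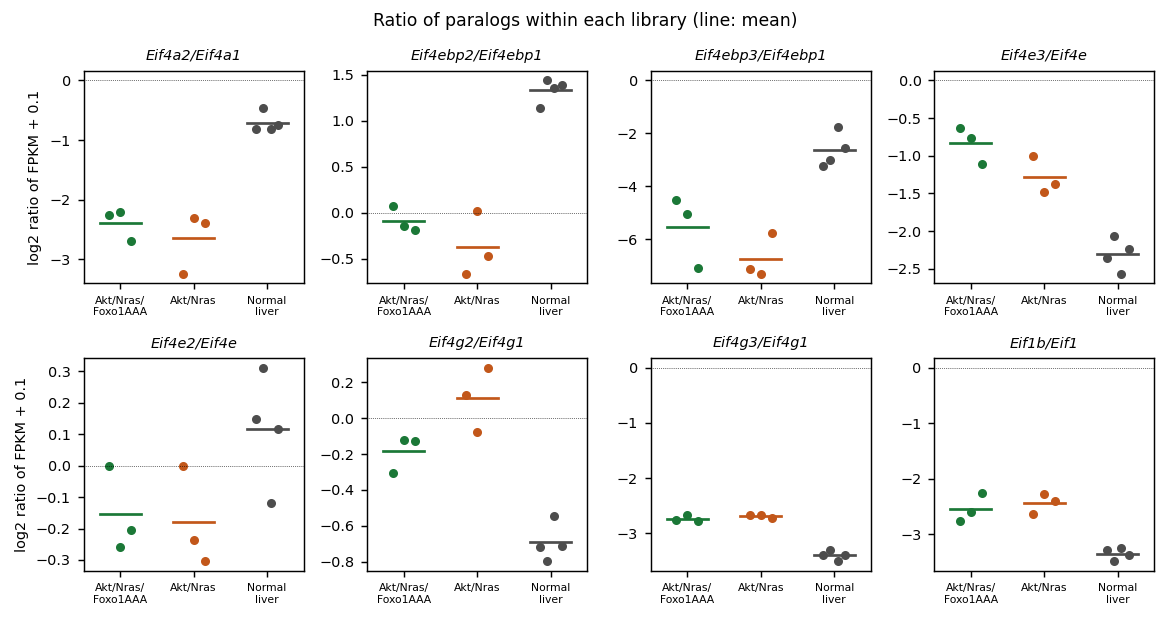
Log2 ratio of FPKM + 0.1 between paralogs within each library, for 8 of the 10 pairs, with Akt/Nras/Foxo1AAA tumours, Akt/Nras tumours and normal livers from left to right. Points are libraries, lines are group means, and each panel has its own vertical range with a dotted line at equal levels where it falls within the panel. Tumours and normal livers do not overlap in 7 of the panels, and overlap for Eif4e2/Eif4e.

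Among the factors that set the start codon, Eif1a rose and Eif1 was lower in the deposited FPKM. Eif1a, whose product binds the decoding site of the small subunit, had 17.8, 17.9 and 22.2 FPKM in Akt/Nras/Foxo1AAA tumours, 26.3, 19.2 and 19.9 FPKM in Akt/Nras tumours and 12.5, 9.92, 16.0 and 13.5 FPKM in normal livers. The tumours lay above every normal liver. Its rise was 1.49-fold in Akt/Nras/Foxo1AAA tumours (log2 change 0.55, SE 0.16, adjusted p = 0.0115) and 1.68-fold in Akt/Nras tumours (log2 change 0.71, SE 0.16, adjusted p = 0.00223), under all 4 scalings, and without Akt/Nras/Foxo1AAA replicate 3 the adjusted p of the Akt/Nras/Foxo1AAA change was 0.0508. Eif1, whose product rejects poor start codons, had 129, 126 and 139 FPKM in Akt/Nras/Foxo1AAA tumours, 138, 113 and 134 FPKM in Akt/Nras tumours and 229, 254, 277 and 240 FPKM in normal livers. No tumour came near the normal livers in FPKM. The log2 changes of Eif1 were -0.92 (SE 0.10, adjusted p = 1.81e-05) in Akt/Nras/Foxo1AAA tumours and -0.96 (SE 0.10, adjusted p = 8.96e-06) in Akt/Nras tumours. Under equal totals it was -0.20 in Akt/Nras/Foxo1AAA tumours and 0.01 in Akt/Nras tumours, and neither was called. The paralog Eif1b was called in neither tumour group, with log2 changes of -0.11 in Akt/Nras/Foxo1AAA tumours and -0.06 in Akt/Nras tumours, and under equal totals it was called higher in both (0.58 in Akt/Nras/Foxo1AAA tumours and 0.88 in Akt/Nras tumours). Eif1ad, a nuclear relative of eIF1A, was called lower in both tumour groups in the deposited FPKM (log2 changes -0.38 in Akt/Nras/Foxo1AAA tumours and -0.54 in Akt/Nras tumours), and higher in both under equal totals (0.27 in Akt/Nras/Foxo1AAA tumours and 0.34 in Akt/Nras tumours).

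In the eIF2 group, which delivers the initiator tRNA, log2 changes in the deposited FPKM lay between -0.54 and 0.16 in Akt/Nras/Foxo1AAA tumours and between -0.49 and 0.29 in Akt/Nras tumours. Under equal totals 3 of the 4 genes were called higher in Akt/Nras/Foxo1AAA tumours and all 4 in Akt/Nras tumours, with median log2 changes of 0.60 in Akt/Nras/Foxo1AAA tumours and 0.82 in Akt/Nras tumours. There 60.9% of all tested genes were called higher in Akt/Nras/Foxo1AAA tumours and 69.2% in Akt/Nras tumours. Eif2s1, the alpha subunit that stress kinases phosphorylate, had 10.1, 9.66 and 9.81 FPKM in Akt/Nras/Foxo1AAA tumours, 9.31, 11.2 and 11 FPKM in Akt/Nras tumours and 9.87, 8.01, 7.98 and 9.28 FPKM in normal livers. Tumours and normal livers overlapped. The log2 change was 0.16 (SE 0.09, adjusted p = 0.169) in Akt/Nras/Foxo1AAA tumours and 0.24 (SE 0.09, adjusted p = 0.0453) in Akt/Nras tumours, and the call in Akt/Nras tumours was lost when most libraries were left out in turn, with the highest adjusted p, 0.147, without Akt/Nras replicate 2. Eif2s2, the beta subunit, was called higher in Akt/Nras tumours under all 4 scalings (log2 change 0.29, adjusted p = 0.00517), and its change in Akt/Nras/Foxo1AAA tumours was 0.13 (adjusted p = 0.158). Under equal totals Eif2s1 stood at 0.80 in Akt/Nras/Foxo1AAA tumours and 1.11 in Akt/Nras tumours, and Eif2s2 at 0.79 in Akt/Nras/Foxo1AAA tumours and 1.19 in Akt/Nras tumours, all called. Eif2a and Eif2d, whose products can bring tRNA to the ribosome without eIF2, were called lower in both tumour groups in the deposited FPKM. Their log2 changes were -0.54 for Eif2a and -0.21 for Eif2d in Akt/Nras/Foxo1AAA tumours and -0.49 and -0.30 for the same genes in Akt/Nras tumours, and the call of Eif2d in Akt/Nras/Foxo1AAA tumours was lost without 1 of several libraries (adjusted p of up to 0.141, without Akt/Nras/Foxo1AAA replicate 2). Under equal totals Eif2d was called higher in both groups (0.42 in Akt/Nras/Foxo1AAA tumours and 0.54 in Akt/Nras tumours), and Eif2a in Akt/Nras tumours (0.36), with 0.09 and no call in Akt/Nras/Foxo1AAA tumours. Serp1, which overlaps Eif2a on the opposite strand, reached 134 FPKM.

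Subunits of the exchange factor eIF2B moved in different directions. Eif2b2, the beta subunit (ENSMUSG00000004788, chromosome 12), had 24.0, 26.4 and 25.8 FPKM in Akt/Nras/Foxo1AAA tumours, 35.3, 23.8 and 25.8 FPKM in Akt/Nras tumours and 17.2, 16.1, 16.2 and 15.3 FPKM in normal livers. All tumours were above all normal livers. Eif2b2 rose 1.57-fold in Akt/Nras/Foxo1AAA tumours (log2 change 0.62, SE 0.12, adjusted p = 0.00103) and 1.75-fold in Akt/Nras tumours (log2 change 0.75, SE 0.12, adjusted p = 0.000228), under all 4 scalings. Eif2b1, the alpha subunit, had 11.2, 12.2 and 11.7 FPKM in Akt/Nras/Foxo1AAA tumours, 10.9, 12.2 and 10.2 FPKM in Akt/Nras tumours and 20.9, 19.0, 18.1 and 16.4 FPKM in normal livers, lower in every tumour. Its log2 change was -0.63 (SE 0.09, adjusted p = 0.000172) in Akt/Nras/Foxo1AAA tumours and -0.70 (SE 0.09, adjusted p = 6.1e-05) in Akt/Nras tumours. Under equal totals it was 0.05 in Akt/Nras/Foxo1AAA tumours and 0.21 in Akt/Nras tumours, with no call. Within a library the FPKM ratio of Eif2b2 to Eif2b1 was 2.14 to 2.21 in Akt/Nras/Foxo1AAA tumours, 1.95 to 3.23 in Akt/Nras tumours, against 0.820 to 0.930 in normal livers, a ratio chosen after its values were seen and not tested. Eif2b5, the catalytic epsilon subunit, had 23.2, 23.9 and 25.1 FPKM in Akt/Nras/Foxo1AAA tumours, 26.8, 23.5 and 26.4 FPKM in Akt/Nras tumours and 23.1, 20.9, 23.2 and 23.4 FPKM in normal livers. Its log2 changes of 0.08 (SE 0.08, adjusted p = 0.351) in Akt/Nras/Foxo1AAA tumours and 0.17 (SE 0.08, adjusted p = 0.0725) in Akt/Nras tumours did not pass. Under equal totals they were 0.77 in Akt/Nras/Foxo1AAA tumours and 1.10 in Akt/Nras tumours, and both were called. Eif2b4 was called lower in both groups in the deposited FPKM (-0.37 in Akt/Nras/Foxo1AAA tumours and -0.52 in Akt/Nras tumours) and higher in both under equal totals (0.32 in Akt/Nras/Foxo1AAA tumours and 0.40 in Akt/Nras tumours).

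The eIF3 complex is a many-membered scaffold on the small ribosomal subunit. Of its 14 tested genes, 0 were higher and 7 lower in Akt/Nras/Foxo1AAA tumours and 2 were higher and 4 lower in Akt/Nras tumours by limma. All tested genes gave 26.8% higher and 36.5% lower in Akt/Nras/Foxo1AAA tumours and 31.1% higher and 37.9% lower in Akt/Nras tumours. The log2 changes of the 14 eIF3 genes lay between -0.48 and 0.20 in Akt/Nras/Foxo1AAA tumours and between -0.85 and 0.29 in Akt/Nras tumours. With equal totals 12 of the same 14 genes were called higher in Akt/Nras/Foxo1AAA tumours and 13 in Akt/Nras tumours, and 0 lower in each, where 60.9% of all tested genes were called higher in Akt/Nras/Foxo1AAA tumours and 69.2% in Akt/Nras tumours. The median log2 change of the complex was then 0.46 in Akt/Nras/Foxo1AAA tumours and 0.85 in Akt/Nras tumours, against -0.25 in Akt/Nras/Foxo1AAA tumours and -0.09 in Akt/Nras tumours in the deposited FPKM. Eif3a and Eif3c, core subunits, were called higher in Akt/Nras tumours under all 4 scalings (log2 change 0.27 for Eif3a and 0.29 for Eif3c), and were not called in Akt/Nras/Foxo1AAA tumours (0.18 for Eif3a and 0.17 for Eif3c). Both calls in Akt/Nras tumours were lost without single libraries, with an adjusted p of up to 0.0775 for Eif3a (without Akt/Nras replicate 2, and 0.0544 without normal liver replicate 2) and of up to 0.146 for Eif3c (without Akt/Nras replicate 1, and also without normal liver replicate 2, 3 or 4). Eif3j2, the most changed gene of the group, had 12, 10.4 and 12.1 FPKM in Akt/Nras/Foxo1AAA tumours, 6.54, 10.4 and 9.43 FPKM in Akt/Nras tumours and 17, 14.4, 15.4 and 19.1 FPKM in normal livers. Every tumour was below every normal liver. Its log2 change was -0.48 (SE 0.14, adjusted p = 0.0138) in Akt/Nras/Foxo1AAA tumours and -0.85 (SE 0.14, adjusted p = 0.000334) in Akt/Nras tumours, with 0.19 in Akt/Nras/Foxo1AAA tumours and 0.04 in Akt/Nras tumours and no call under equal totals, and without Akt/Nras/Foxo1AAA replicate 2 the adjusted p of the Akt/Nras/Foxo1AAA change was 0.0582. Eif3j1 and Eif3j2 are near-identical copies whose reads the counting could split, so the level of either is uncertain.

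Eif6, whose product keeps the large ribosomal subunit from joining too early, rose. Eif6 (ENSMUSG00000027613, chromosome 2) had 49.6, 45.4 and 51.0 FPKM in Akt/Nras/Foxo1AAA tumours, 88.8, 43.5 and 60.6 FPKM in Akt/Nras tumours and 29.3, 26.2, 28.8 and 27.6 FPKM in normal livers. All tumours lay above all normal livers, and the Akt/Nras tumours spread widely. The rise was 1.74-fold in Akt/Nras/Foxo1AAA tumours (log2 change 0.78, SE 0.19, adjusted p = 0.00391) and 2.30-fold in Akt/Nras tumours (log2 change 1.11, SE 0.19, adjusted p = 0.00031), under all 4 scalings. Eif5a, which carries the modified amino acid hypusine and helps ribosomes past stretches of proline, had 214, 213 and 227 FPKM in Akt/Nras/Foxo1AAA tumours, 240, 221 and 237 FPKM in Akt/Nras tumours and 303, 281, 334 and 298 FPKM in normal livers. Tumours were lower without overlap, at log2 changes of -0.48 (SE 0.08, adjusted p = 0.000566) in Akt/Nras/Foxo1AAA tumours and -0.38 (SE 0.08, adjusted p = 0.00201) in Akt/Nras tumours. Under equal totals the changes turned to 0.24 in Akt/Nras/Foxo1AAA tumours and 0.59 in Akt/Nras tumours, both called. Its paralog Eif5a2 was too low to be tested, with 25, 9 and 17 reads in Akt/Nras/Foxo1AAA tumours, 17, 29 and 33 reads in Akt/Nras tumours and 0, 1, 3 and 1 reads in normal livers. That is 0.274, 0.1 and 0.237 FPKM in Akt/Nras/Foxo1AAA tumours, 0.206, 0.325 and 0.308 FPKM in Akt/Nras tumours and at most 0.0624 FPKM in normal livers, with no overlap. Eif5 and Eif5b, which release initiation factors and join the subunits, had log2 changes between -0.35 and -0.02, of which only that of Eif5 in Akt/Nras/Foxo1AAA tumours was called (adjusted p = 0.0104), and under equal totals Eif5 and Eif5b were called higher in both groups, at log2 changes between 0.36 and 0.78.

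The elongation factors Eef1a1 and Eef2 were the most abundant transcripts of those described here, and both changed direction with the scaling. Eef1a1 (ENSMUSG00000037742, chromosome 9) had 1711, 1636 and 1676 FPKM in Akt/Nras/Foxo1AAA tumours, 1989, 1574 and 1819 FPKM in Akt/Nras tumours and 2360, 2248, 2333 and 2293 FPKM in normal livers. Its log2 change was -0.46 (SE 0.10, adjusted p = 0.00262) in Akt/Nras/Foxo1AAA tumours and -0.37 (SE 0.10, adjusted p = 0.00855) in Akt/Nras tumours, without overlap. Under equal totals it was 0.26 in Akt/Nras/Foxo1AAA tumours and 0.60 in Akt/Nras tumours, both called. Eef2 had 659, 662 and 704 FPKM in Akt/Nras/Foxo1AAA tumours, 914, 683 and 771 FPKM in Akt/Nras tumours and 922, 850, 892 and 894 FPKM in normal livers. The Akt/Nras/Foxo1AAA tumours lay below the normal livers and the Akt/Nras tumours overlapped them. The log2 change of Eef2 was -0.40 (SE 0.11, adjusted p = 0.0077) in Akt/Nras/Foxo1AAA tumours and -0.18 (SE 0.11, adjusted p = 0.154) in Akt/Nras tumours, and under equal totals 0.32 in Akt/Nras/Foxo1AAA tumours and 0.79 in Akt/Nras tumours, both called. Eef2k, the kinase that phosphorylates and slows eEF2, had 1.74, 1.48 and 1.22 FPKM in Akt/Nras/Foxo1AAA tumours, 1.44, 1.53 and 1.61 FPKM in Akt/Nras tumours and 3.35, 2.71, 2.69 and 3.03 FPKM in normal livers. No tumour reached the lowest normal liver. Eef2k was 1.99-fold lower in Akt/Nras/Foxo1AAA tumours (log2 change -0.67, SE 0.10, adjusted p = 0.00016) and 1.93-fold lower in Akt/Nras tumours (log2 change -0.64, SE 0.10, adjusted p = 0.000177), with -0.18 in Akt/Nras/Foxo1AAA tumours and 0.02 in Akt/Nras tumours and no call under equal totals.

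Eef1a2, the eEF1A paralog of muscle and neurons, was counted above a few reads in 2 libraries, both of Akt/Nras/Foxo1AAA tumours. It had 48, 26 and 3 reads in Akt/Nras/Foxo1AAA tumours, 0, 0 and 3 reads in Akt/Nras tumours and 0 reads in each normal liver, or 1.27, 0.698 and 0.101 FPKM against at most 0.0675 FPKM elsewhere. A count of 0 allows up to 3 reads, which in the first normal liver is 0.123 FPKM, so the third Akt/Nras/Foxo1AAA tumour was at that limit and the gene was not tested. Of the other eEF1 genes, Eef1e1, a component of the tRNA synthetase complex, rose under all 4 scalings in Akt/Nras/Foxo1AAA tumours (log2 change 0.27, adjusted p = 0.0467) and in Akt/Nras tumours (0.36, adjusted p = 0.0122). The call in Akt/Nras/Foxo1AAA tumours was lost without any 1 of 8 libraries (adjusted p of up to 0.177, without Akt/Nras/Foxo1AAA replicate 3), and that in Akt/Nras tumours without Akt/Nras replicate 3 (adjusted p = 0.0559). Eef1d, an exchange factor subunit for eEF1A, was called lower in both in the deposited FPKM (-0.41 in Akt/Nras/Foxo1AAA tumours and -0.40 in Akt/Nras tumours), and higher in both under equal totals (0.28 in Akt/Nras/Foxo1AAA tumours and 0.52 in Akt/Nras tumours), and it overlaps Naprt on the same strand, which reached 94.7 FPKM. Eef1b2 and Eef1g, the other exchange subunits, were called in neither in the deposited FPKM. Under equal totals all 5 tested eEF1 genes were called higher in both groups, Eef1b2 at 0.55 in Akt/Nras/Foxo1AAA tumours and 1.13 in Akt/Nras tumours and Eef1g at 0.61 in Akt/Nras/Foxo1AAA tumours and 1.08 in Akt/Nras tumours. Of all tested genes, 60.9% were called higher there in Akt/Nras/Foxo1AAA tumours and 69.2% in Akt/Nras tumours.

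Enzymes that methylate elongation factors were expressed at 1.01 to 15.6 FPKM where tested. Eef1akmt2, a lysine methyltransferase of eEF1A, had 1.87, 2.6 and 2.74 FPKM in Akt/Nras/Foxo1AAA tumours, 2.69, 3.22 and 2.69 FPKM in Akt/Nras tumours and 1.45, 1.01, 2.31 and 2.25 FPKM in normal livers. The Akt/Nras tumours lay above the normal livers and the Akt/Nras/Foxo1AAA tumours overlapped them. It rose 1.63-fold in Akt/Nras tumours (log2 change 0.52, SE 0.18, adjusted p = 0.0234) under all 4 scalings, a call lost without Akt/Nras replicate 2 (adjusted p = 0.0806) or normal liver replicate 1 (adjusted p = 0.0556), and Fgfr2, which overlaps it on the same strand, reached 14.9 FPKM. In Akt/Nras/Foxo1AAA tumours its log2 change was 0.33 (adjusted p = 0.13). Eef1akmt1 was called higher in Akt/Nras/Foxo1AAA tumours under all 4 scalings (log2 change 0.37, adjusted p = 0.0484), and not in Akt/Nras tumours (0.13, adjusted p = 0.448). That call was lost without any 1 of 7 libraries, with the highest adjusted p, 0.174, without Akt/Nras/Foxo1AAA replicate 1. Eef1aknmt was called lower in both in the deposited FPKM (-0.45 in Akt/Nras/Foxo1AAA tumours and -0.44 in Akt/Nras tumours) and not under all 4 scalings.

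The 22 members that were not tested comprise 16 numbered paralogs of Eif1ad, Eif4a3l1, Eif4a3l2, Eif4e1b, Eef1a2, Eif5a2 and Eef1akmt3, and 15 of the 80 members were at 0 in all libraries. Eif4a3, the helicase of the exon junction complex, was called in neither tumour group, with log2 changes of -0.17 in Akt/Nras/Foxo1AAA tumours and 0.11 in Akt/Nras tumours, and under equal totals it was called higher in both (0.53 in Akt/Nras/Foxo1AAA tumours and 1.06 in Akt/Nras tumours). The comparisons with normal liver share the normal livers. Across the 58 tested members, 6 were called higher in both tumour groups (10.3%, against 24.8% of all tested genes), 22 lower in both (37.9%, against 32.8%), 18 in neither (31%, against 25.3%) and 0 in opposite directions (against 0.0563%), by limma in the deposited FPKM. The libraries of Akt/Nras/Foxo1AAA tumours and normal livers did not overlap for 38 members (9 higher and 29 lower), where 65.4% of all tested genes did not overlap and 63.3% were called. Those of Akt/Nras tumours and normal livers did not overlap for 36 members (12 higher and 24 lower), where 68.3% of all tested genes did not overlap and 69% were called.

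Between the tumour groups the number of members called depended on the scaling. In the deposited FPKM of Akt/Nras/Foxo1AAA against Akt/Nras tumours 2 members were called higher, against 7.93% of all tested genes, and 1 lower, against 4.13%. Under all 4 scalings 0 were higher, against 5.07% of all tested genes, and 1 lower, against 4.02%. By limma 0 were higher under equal totals, against 5.27%, and 25 were lower (43.1%), against 26.1% of all tested genes. The median log2 change of the members was -0.08 in the deposited FPKM and -0.32 under equal totals, where the medians over all tested genes were -0.01 in the deposited FPKM and -0.21 under equal totals. A log2 change of at least 0.5 was seen in 1.72% of members and 13.7% of all tested genes in the deposited FPKM, and in 12.1% of members and 20.1% of all tested genes under equal totals. Eif4ebp2, with the values given above, was 1.31-fold higher in Akt/Nras/Foxo1AAA tumours (log2 change 0.38, SE 0.09, adjusted p = 0.0281), without overlap, and Eif4e3 was 1.37-fold higher (log2 change 0.37, SE 0.10, adjusted p = 0.0368), also without overlap. Under equal totals the change was 0.14 for Eif4ebp2 and 0.17 for Eif4e3, and neither was called. Eif3m, an eIF3 subunit, had 19.6, 21.1 and 18.9 FPKM in Akt/Nras/Foxo1AAA tumours, 29.6, 23.4 and 26.8 FPKM in Akt/Nras tumours and 29.1, 27.2, 28.9 and 26.2 FPKM in normal livers. Every Akt/Nras/Foxo1AAA tumour was below every other library. Eif3m fell 1.34-fold against Akt/Nras tumours (log2 change -0.40, SE 0.10, adjusted p = 0.0253) under all 4 scalings, and its log2 change against normal livers was -0.47 (adjusted p = 0.001), turning to 0.23 under equal totals, where it was called higher. All 3 calls between the tumour groups were lost when some single libraries were left out, with adjusted p values of up to 0.0848 for Eif3m and 0.131 for Eif4e3 without Akt/Nras/Foxo1AAA replicate 1, and 0.1 for Eif4ebp2 without that same library. They were also lost in a fit of only those groups and with the replicate number as a block. Groups did not overlap for 14 members (5 higher and 9 lower), where 31.9% of all tested genes did not overlap and 12.1% were called.

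Genes that act around these factors were counted by list. The shares to read these counts against are those of all tested genes, 26.8% higher and 36.5% lower in Akt/Nras/Foxo1AAA tumours and 31.1% higher and 37.9% lower in Akt/Nras tumours. Of 22 cytosolic aminoacyl-tRNA synthetase genes, 10 were called higher and 4 lower in Akt/Nras/Foxo1AAA tumours and 10 higher and 5 lower in Akt/Nras tumours. The 10 in each held under all 4 scalings, as every tested gene called higher against normal liver did. The median log2 changes of the list were 0.11 in Akt/Nras/Foxo1AAA tumours and 0.20 in Akt/Nras tumours, beside -0.09 and -0.07 over all tested genes. Gars, glycyl-tRNA synthetase, averaged 65.3 ± 8.32 FPKM in Akt/Nras/Foxo1AAA tumours, 67.7 ± 14.8 FPKM in Akt/Nras tumours and 25.2 ± 2.11 FPKM in normal livers (SD, n = 3, 3 and 4), with log2 changes of 1.34 in Akt/Nras/Foxo1AAA tumours (adjusted p = 1.48e-05) and 1.37 in Akt/Nras tumours (adjusted p = 8.04e-06). Dars, aspartyl-tRNA synthetase, had the largest decrease of the list, at log2 changes of -0.55 in Akt/Nras/Foxo1AAA tumours and -0.60 in Akt/Nras tumours, with neither kept under all 4 scalings. Aars, alanyl-tRNA synthetase, was called higher in Akt/Nras/Foxo1AAA against Akt/Nras tumours (log2 change 0.45, adjusted p = 0.0107), a call that depended on the scaling. Of the 7 eIF2 alpha kinase and phosphatase genes, 2 were higher and 2 lower in Akt/Nras/Foxo1AAA tumours and 3 higher and 2 lower in Akt/Nras tumours.

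Eif2ak3, the eIF2 alpha kinase PERK of the endoplasmic reticulum, averaged 7.12 ± 0.127 FPKM in Akt/Nras/Foxo1AAA tumours, 10.6 ± 1.0 FPKM in Akt/Nras tumours and 2.80 ± 0.238 FPKM in normal livers (SD, n = 3, 3 and 4). Its log2 change was 1.10 in Akt/Nras/Foxo1AAA tumours (adjusted p = 1.40e-06) and 1.61 in Akt/Nras tumours (adjusted p = 6.56e-08), each against normal livers, and -0.51 in Akt/Nras/Foxo1AAA against Akt/Nras tumours (adjusted p = 0.00814), all held under all 4 scalings. Ppp1r15b, which recruits a phosphatase that removes the mark set by these kinases, averaged 14.7 ± 0.789 FPKM in Akt/Nras/Foxo1AAA tumours, 14.3 ± 0.996 FPKM in Akt/Nras tumours and 29.5 ± 0.434 FPKM in normal livers (SD, n = 3, 3 and 4). Its log2 change was -0.96 in Akt/Nras/Foxo1AAA tumours, called under all 4 scalings, and -1.0 in Akt/Nras tumours, a call that depended on the scaling. Of the 10 mTORC1 and MNK genes that feed the cap complex, 0 were higher and 6 lower in Akt/Nras/Foxo1AAA tumours and 0 higher and 7 lower in Akt/Nras tumours. Under equal totals 7 of the 10 were higher and 0 lower in each, close to the shares of all tested genes that were higher there (60.9% in Akt/Nras/Foxo1AAA tumours and 69.2% in Akt/Nras tumours). Mknk2, a kinase of eIF4E, had the largest decrease in Akt/Nras tumours (log2 change -0.76, with 0.20 under equal totals), and was higher in Akt/Nras/Foxo1AAA than in Akt/Nras tumours in the deposited FPKM (0.42, adjusted p = 0.0486, with 0.18 and no call under equal totals, and up to 0.169 without Akt/Nras/Foxo1AAA replicate 1). In Akt/Nras/Foxo1AAA tumours the largest was that of Rps6kb1, an S6 kinase (-0.56, a call that depended on the scaling). Of 7 termination and recycling genes, 0 were higher and 4 lower in Akt/Nras/Foxo1AAA tumours and 1 higher and 4 lower in Akt/Nras tumours. Etf1, the release factor, rose in Akt/Nras tumours under all 4 scalings (log2 change 0.31, with an adjusted p of 0.0697 without Akt/Nras replicate 1), and Mcts2, a retrocopy whose reads cannot be told from those of its parent gene with certainty, had the largest decrease (-1.02 in Akt/Nras/Foxo1AAA tumours and -1.10 in Akt/Nras tumours). Of 5 poly(A)-binding protein genes, 0 were higher in either group, 2 were lower in Akt/Nras/Foxo1AAA tumours and 1 was lower in Akt/Nras tumours, with the largest decrease in Paip2, which restrains the poly(A)-binding protein (-0.32 in Akt/Nras/Foxo1AAA tumours and -0.33 in Akt/Nras tumours). Of 8 hypusine and diphthamide enzymes, 0 were higher and 2 lower in Akt/Nras/Foxo1AAA tumours and 2 higher and 1 lower in Akt/Nras tumours. Dph6, of diphthamide synthesis, rose in Akt/Nras tumours under all 4 scalings (log2 change 0.45), and Dohh, which completes hypusine, had the largest decrease (-0.51 in Akt/Nras/Foxo1AAA tumours and -0.59 in Akt/Nras tumours). No decrease in these last 3 lists held under all 4 scalings.

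Promoter windows, 250 bases before to 50 after each RefSeq gene start in GRCm38.p6, were found for 44 of the 58 tested members. The E-box CACGTG, which reads the same on both strands and is the known core of MYC and USF binding sites, was in the windows of 13 of these 44 genes (29.5%), against 11.9% of the 9007 tested genes with a window and 7.15% of all 32851 windows. The 13 genes were Eef1akmt4, Eef1aknmt, Eef2, Eef2k, Eif1b, Eif3a, Eif3f, Eif3k, Eif4a1, Eif4e, Eif4g1, Eif4h and Eif5a. Of them 0 were higher and 6 lower in Akt/Nras/Foxo1AAA tumours and 2 higher and 5 lower in Akt/Nras tumours in the deposited FPKM. Of the other 31 members, 2 were higher and 15 lower in Akt/Nras/Foxo1AAA tumours and 6 higher and 13 lower in Akt/Nras tumours. All tested genes gave 26.8% higher and 36.5% lower in Akt/Nras/Foxo1AAA tumours and 31.1% higher and 37.9% lower in Akt/Nras tumours. The forkhead motif GTAAACA and the ATF4 motif TGATGCAA, searched on both strands, were in 0 of the 44 genes' windows. They were in those of 3.35% and 0.755% of the tested genes with a window, and in 3.65% and 0.895% of all windows. With shares this low, 0 of 44 does not set the members apart from other genes. A match or its absence describes only these letters in these windows. The E-box is shown in capitals, with its flanks, for genes whose levels are given above, to let the sites be compared. A single site is shown for each gene, and Eif4e and Eif5a each have another CACGTG that is not shown.
Eif4a1, chr11:69672590-69672629, minus strand: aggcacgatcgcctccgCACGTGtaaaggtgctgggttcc
Eif4e, chr3:138527187-138527226, plus strand: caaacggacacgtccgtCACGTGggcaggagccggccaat
Eif4g1, chr16:20672656-20672695, plus strand: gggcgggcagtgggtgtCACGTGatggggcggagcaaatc
Eif4h, chr5:134639483-134639522, minus strand: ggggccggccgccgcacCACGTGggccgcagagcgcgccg
Eif5a, chr11:69921438-69921477, minus strand: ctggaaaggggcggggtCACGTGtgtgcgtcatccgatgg
Eef2, chr10:81176571-81176610, plus strand: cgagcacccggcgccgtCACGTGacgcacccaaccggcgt
Eef2k, chr7:120842783-120842822, plus strand: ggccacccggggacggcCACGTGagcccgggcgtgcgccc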

How the data were processed

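RNA was isolated with the Zymo Quick-RNA Miniprep system, and libraries were made by polyA capture or else by removing rRNA, per the labels' protocols, which leave the choice unstated. The authors deposited FPKM for 56748 genes, with 1 column for each library, as the table header shows, and no column lacked a sample. The submitters' processing notes list FastQC 0.11.7 and GRCm38 without saying how either was used. Which aligner, counter and annotation were used is not given in the sources used here. Deposited coordinates matched those of the GRCm38 annotation for 0 of the 80 members, so coordinates printed here are those of RefSeq promoter windows in GRCm38.p6. FPKM multiplied by gene length gave whole reads, within 0.02 reads, for 100% of values above 0, and intervals or floors on such reads cover counting error only.

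The model was limma 3.58.1 (lmFit, contrasts.fit, eBayes with trend) run in R 4.3.3 on log2(FPKM + 1), two-sided, with all 10 libraries in 1 fit and a mean per group. This scale understates changes of low genes, and folds are ratios of mean FPKM. Genes with at least 1 FPKM in at least 3 libraries entered (12439), p-values were adjusted by Benjamini-Hochberg over all of them, and a call needs an adjusted p under 0.05. Scaled values were filtered on the deposited FPKM. Paralog ratios used log2 of FPKM + 0.1 and an exact two-sided permutation test. Scripts were tested on simulated data. Alternatives were 3 other scalings, a pseudocount of 0.1, no filter, a minimum of 5 FPKM, array weights, a fit of only the groups compared, the replicate number as a block, and each library left out.

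The members and lists were chosen with earlier results of these data known. Values of every library are given for a panel of 17 members and for the 5 called members that increased most and the 5 that decreased most in each comparison. Eif2b1 was added as an example, and 10 numbered Eif1ad paralogs were put in a role after their values were seen. Of each surrounding list, the called gene that increased most and the one that decreased most are named.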

Additional observations from a re-analysis of the deposited data

Results flagged for a closer look

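Eif2b5 in normal liver had 1 library apart from the rest. Normal liver replicate 2 was at 20.9 FPKM, below the others at 23.1 to 23.4 FPKM, a gap of 0.884 of the group's range. Chance sets apart about 1 in 20 groups, and 23 named members were checked. Between the tumour groups, 3 members were called in the deposited FPKM (5.17% of tested members, against 12.1% of all tested genes). The log2 change in Akt/Nras/Foxo1AAA against Akt/Nras tumours was -0.40 for Eif3m, 0.37 for Eif4e3 and 0.38 for Eif4ebp2. Eif4e3 and Eif4ebp2 were not called under equal totals. Each of the 3 calls was lost when some single libraries were left out. They were also lost in a fit of only those groups and with the replicate number as a block.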

How the results depend on the processing

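Scaling moved the counts most, and the cause was not tested. With equal totals 47 members were higher and 2 lower in Akt/Nras/Foxo1AAA tumours against normal livers, 49 higher and 3 lower in Akt/Nras tumours, and 0 higher and 25 lower in Akt/Nras/Foxo1AAA against Akt/Nras tumours. All tested genes gave 60.9% higher and 13.5% lower, 69.2% and 13.8%, and 5.27% and 26.1% there. Without the 50 most abundant genes the counts were 35 and 6, 44 and 4, and 0 and 4. All tested genes gave 55.0% higher and 15.4% lower, 60.2% and 17.6%, and 6.46% and 9.98% in that setting. Median ratio scaling gave 16 higher in Akt/Nras/Foxo1AAA tumours against normal livers (27.6%, against 31.4% of all tested genes). Between the tumour groups a pseudocount of 0.1, no filter and a minimum of 5 FPKM left 1 higher, array weights gave 5 lower, and a fit of only those groups left 0 higher and 0 lower. In the same order, all tested genes gave 990 of 12439, 595 of 27446 and 1049 of 7112 higher. Array weights gave 1679 of all 12439 lower, and the fit of only those groups gave 5 higher and 5 lower. Leaving out each library gave 4 to 7 higher and 23 to 27 lower in Akt/Nras/Foxo1AAA tumours against normal livers (4 without Akt/Nras/Foxo1AAA replicate 3), 9 to 12 and 20 to 24 in Akt/Nras tumours, and 0 to 2 and 0 to 3 between the tumour groups. Each of these fits tested 12268 to 12367 genes. Of all tested genes, 2984 to 3385 were higher and 4120 to 4650 lower in Akt/Nras/Foxo1AAA tumours. The counts were 3502 to 3830 and 4412 to 4714 in Akt/Nras tumours, and 395 to 1237 and 147 to 702 between the tumour groups. With each library left out, paralog ratios without overlap numbered 9 to 10, 9 to 10 and 2 to 5 (5 without Akt/Nras/Foxo1AAA replicate 3).

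Of the members called lower against normal livers, 16 of 27 in Akt/Nras/Foxo1AAA tumours (59.3%) and 13 of 22 in Akt/Nras tumours (59.1%) were called higher under equal totals, against 14.9% and 28.1% of all genes called lower. Among the members named by the rule, the direction turned in Akt/Nras/Foxo1AAA tumours against normal livers, under equal totals and without the 50 most abundant genes, for Eef1a1 (0.26 and 0.14), Eef2 (0.32 and 0.20), Eif3j2 (0.19 and 0.082), Eif3m (0.23 and 0.11), Eif4g1 (0.30 and 0.18) and Eif5a (0.24 and 0.12). In Akt/Nras tumours it turned for Eef1a1 (0.60 and 0.34), Eef2 (0.79 and 0.53), Eif3m (0.87 and 0.62), Eif4g1 (0.33 and 0.067) and Eif5a (0.59 and 0.32), and under equal totals alone for Eef2k (0.017), Eif1 (0.0052), Eif3j2 (0.042) and Eif4b (0.14). Over 66 log2 changes of named members and all alternatives, 1130 stayed called or stayed uncalled, 52 lost the call and 34 gained it. Another 26 turned direction with a call in the main fit, the alternative or both. Changes that turned direction without a call in either fit are counted among the 1130. An example is Eif4a2 between the tumour groups, at -0.24 to 0.18 with each library left out.

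With the replicate number as a block, 5 members were higher and 23 lower in Akt/Nras/Foxo1AAA tumours against normal livers, 9 and 20 in Akt/Nras tumours, and 0 and 0 between the tumour groups. Of all 12439 tested genes, 3037 were higher and 4201 lower, 3572 and 4391, and 332 and 136 in the same comparisons. The sample titles number the replicates without saying whether equal numbers were paired. Of 9 same-numbered pairs, 1 had deviations correlated over 0.1 (r from -0.17 to 0.11), and 6 of 18 checks found a library closest to its own number. With so few libraries these checks cannot decide whether samples were paired. Depth limits Eif4ebp3, Eef1a2 and Eif5a2, which rest on few reads. Paralog ratios with no pseudocount, tried after the values were seen, gave 9, 8 and 2 without overlap. Of the members called under all 4 scalings, leaving out some library ended the call for 3 of 9 in Akt/Nras/Foxo1AAA tumours, 5 of 15 in Akt/Nras tumours and 1 of 1 between the tumour groups.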
